A study of Mus musculus with 24 samples.

Results

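The genes of oxidative phosphorylation were followed through Sun1 knockout and control CT26 cells, which come from a colon carcinoma of the mouse, in culture and in tumors. Members were chosen by symbol: the 13 protein genes of the mitochondrial genome, and every nuclear gene whose name begins with Nduf, Uqcr, Atp5 or Cox4 to Cox8 or is Sdha, Sdhb, Sdhc or Sdhd. Names marked as pseudogenes were dropped, which removed 2. This left 105 of the 35976 genes in the files, of which 92 are nuclear. The nuclear members are 36 genes of complex I, 4 of complex II, 8 of complex III, 19 of complex IV, 15 of complex V and 10 assembly factors or related proteins. The rule uses symbols only, but it was set with earlier results of these data known.

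RNA sequencing covered 24 libraries. Cultured cells gave 1 library of the Sun1 knockout line and 1 of each of 2 control lines, called control line 1 and control line 2 here. Whole tumors grown under the skin of BALB/c mice and collected at day 14 gave 7 knockout and 8 control libraries, and all 8 control tumors came from control line 1. Tumor cells purified from such tumors gave 2 libraries of the knockout line and 2 of each control line. The labels name 1 knockout line, so the loss of Sun1 cannot be told apart from whatever else sets that line apart. They do not say whether libraries of a group are separate animals, so p-values measure the spread between these libraries. Libraries held 14140769 to 24651279 expected counts, the estimated reads per gene. Sun1 was lower in every knockout library than in every control library of the same setting, at 50.5 to 64.8 CPM (counts scaled to a common library total) against 169 to 192 in tumors. The 6 leukocyte markers summed to 49.6 to 70.8 CPM in purified cells, against 23.3 to 24.99 CPM in culture and 351 to 801 CPM in whole tumors.

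Oxidative phosphorylation makes ATP in the inner mitochondrial membrane. Complexes I and II take electrons from NADH and succinate, complex III passes them to cytochrome c and complex IV to oxygen, and complex V, the ATP synthase, uses the proton gradient that complexes I, III and IV build. Its subunits come from separate genomes: the mitochondrial genome encodes core subunits of complexes I, III, IV and V, and nuclear genes encode all of complex II, the remaining subunits and the assembly factors. Mitochondrial DNA is transcribed as long polycistronic RNAs that are cut into single messengers, so its genes share their transcription, while each nuclear member has its own promoter.

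Some mitochondrial messengers stay joined after cutting. ATP8 and ATP6, subunits of the ATP synthase, share 43 bases at chrMT:7927-7969 of GRCm38, shown with the ATP6 start codon in capitals because reads there belong to both genes and their split between them is an estimate.
ATP8 and ATP6: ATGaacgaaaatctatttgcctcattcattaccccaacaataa
ND4L and ND4, subunits of complex I, share 7 bases at chrMT:10167-10173. ND6 overlaps the end of ND5 and is transcribed from the opposite strand, and the sources used here do not state a strand-specific count. Values of these overlapping genes are less certain than those of COX1 or CYTB.

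Mitochondrial members took up a larger share of the counts in whole tumors than in purified or cultured cells, and nuclear members a smaller or similar one. In culture the 13 mitochondrial genes made up 2.07% of the counts in the knockout, 1.64% in control line 1 and 2.04% in control line 2. In purified cells they made up 1.59% and 1.85% in the knockout, 1.32% and 1.40% in control line 1, and 1.81% and 1.89% in control line 2. In tumors the share had a lowest value of 4.33%, a median of 4.72% and a highest of 5.28% in the knockout, and 2.56%, 3.61% and 4.08% in the control. By counts, every tumor thus lay above every cell library, and every knockout tumor above every control tumor. By deposited TPM, which corrects for gene length, the mitochondrial share was 10.23% to 12.31% in knockout tumors and 7.37% to 10.30% in control tumors. There the genotypes overlapped, and cultured control line 2, at 7.70%, lay above the lowest control tumor. The 92 nuclear members made up 1.02% to 1.14% of the counts in culture and 0.953% to 1.06% in purified cells. In tumors they made up 0.885%, 0.929% and 1.01% (lowest, median and highest) in the knockout and 0.751%, 0.811% and 0.835% in the control, again without overlap between the genotypes. There were 3.40 to 5.68 mitochondrial counts per nuclear count in tumors and 1.33 to 1.99 in cells. Over all 24 libraries the 2 sums on the log2 CPM scale had a Pearson r of -0.54, and over the 15 tumors one of 0.88. These are descriptions across libraries that differ in setting and genotype.

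**Figure D1:**
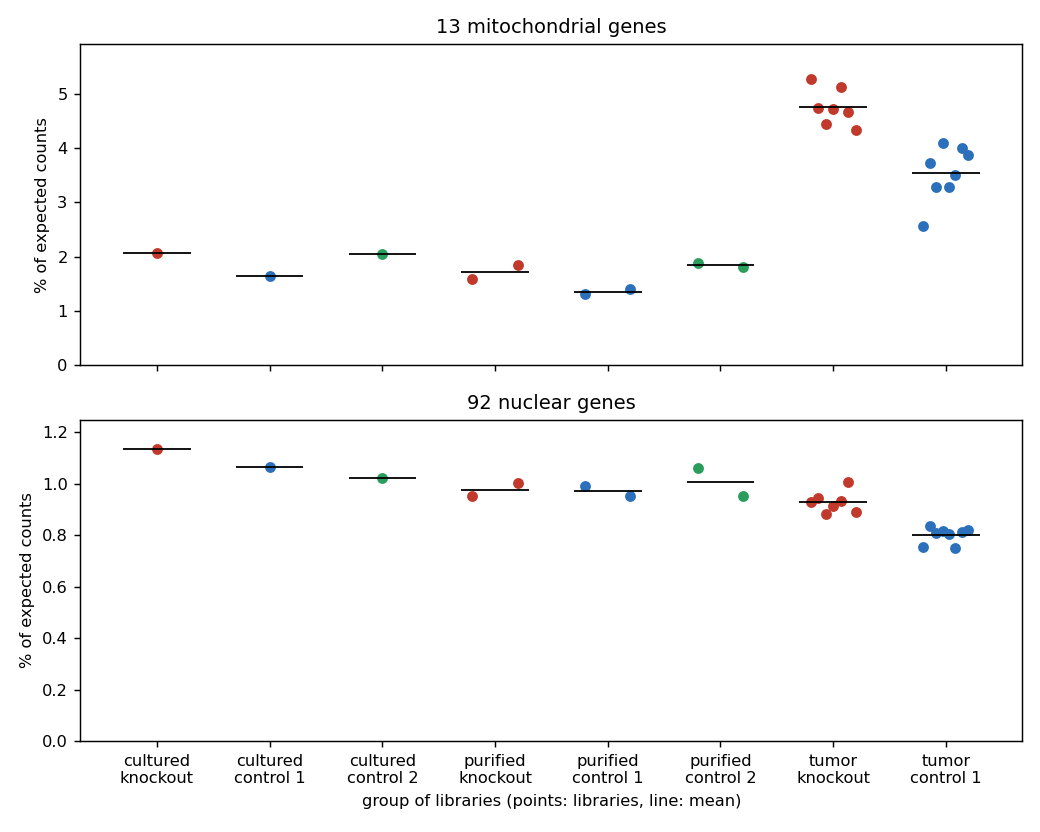
Share of expected counts in each library (y axis, percent) taken by the 13 mitochondrial genes (top) and the 92 nuclear genes (bottom), by group (x axis); points are libraries and lines are group means. Mitochondrial shares are 2.56% to 5.28% in tumors and 1.32% to 2.07% in cells, and for both sets the knockout tumors lie above the control tumors.

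Per length, on the deposited TPM scale, which corrects for gene length and library size, mitochondrial members stood above almost all nuclear ones. In control tumors COX2 had 12861 ± 1591 TPM (SD, n = 8), COX1 11630 ± 1392 and COX3 10799 ± 1219. These 3 form the core of cytochrome c oxidase, and each differed from the next in this order by less than its SD. ATP8 was listed at 19308 ± 2254 TPM, a value that divides by the short effective length of a gene of 204 bases. ND6 was the lowest mitochondrial gene at 1103 ± 144 TPM. The highest nuclear member was Cox6a1, a subunit of complex IV, at 1630 ± 107 TPM, close to ND5 at 1625 ± 152. In purified cells of control line 1 (n = 2) COX2 had 5624 ± 60.8 TPM and Cox6a1 2174 ± 157.

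In tumors, all 13 mitochondrial genes and 58 of the 88 nuclear members tested were higher in the knockout, and 2 nuclear members were lower (edgeR quasi-likelihood test, Benjamini-Hochberg adjusted p under 0.05 over 13752 genes). Over all genes 18.1% were called higher and 19.0% lower. The median log2 fold change was 0.49 for mitochondrial members and 0.29 for nuclear ones, against 0.01 for all genes tested. Values of the 7 knockout and 8 control tumors did not overlap for 9 of 13 mitochondrial members. Among nuclear members 18 were higher and 1 lower without overlap. Of all genes 3.12% were higher and 6.08% lower without overlap, and 37.1% were called in either direction by the test.

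Among the mitochondrial subunits of complex I, the NADH dehydrogenase, ND3 had the largest log2 fold change in knockout tumors, though not the highest level. Its lowest, median and highest CPM, scaled by the trimmed mean of M values (TMM), were 400, 528 and 663 in knockout tumors and 203, 322 and 371 in control tumors. The groups did not overlap, and the log2 fold change was 0.82 with a standard error (SE) of 0.13 (edgeR adjusted p = 0.0002). With a length trend removed, as described below, ND3 was at 0.37 and no longer largest, beside ND4 at 0.38. ND1 had 3011, 3711 and 4099 CPM in the knockout and 1436, 2488 and 2903 in the control, also without overlap (log2 fold change 0.56, SE 0.12, edgeR adjusted p = 0.0014). ND6 was higher by 0.69 (SE 0.13, edgeR adjusted p = 0.00085) but its groups overlapped, with 196 to 395 CPM in the knockout and 135 to 224 in the control. CYTB, the mitochondrial subunit of complex III, had 5395, 5804 and 6276 CPM in the knockout and 3004, 4123 and 4894 in the control. Its log2 fold change was 0.48 (SE 0.08, edgeR adjusted p = 0.00017), with no overlap. COX1, the catalytic subunit of complex IV, had 14118, 14667 and 17286 CPM against 8194, 12750 and 14647. This was the smallest rise of the mitochondrial members, at 0.31 (SE 0.10, edgeR adjusted p = 0.019), and the groups overlapped. ATP8 rose by 0.69 (SE 0.19, edgeR adjusted p = 0.011) and ATP6, which forms the proton channel of complex V, by 0.52 (SE 0.10, edgeR adjusted p = 0.00066).

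**Figure D2:**
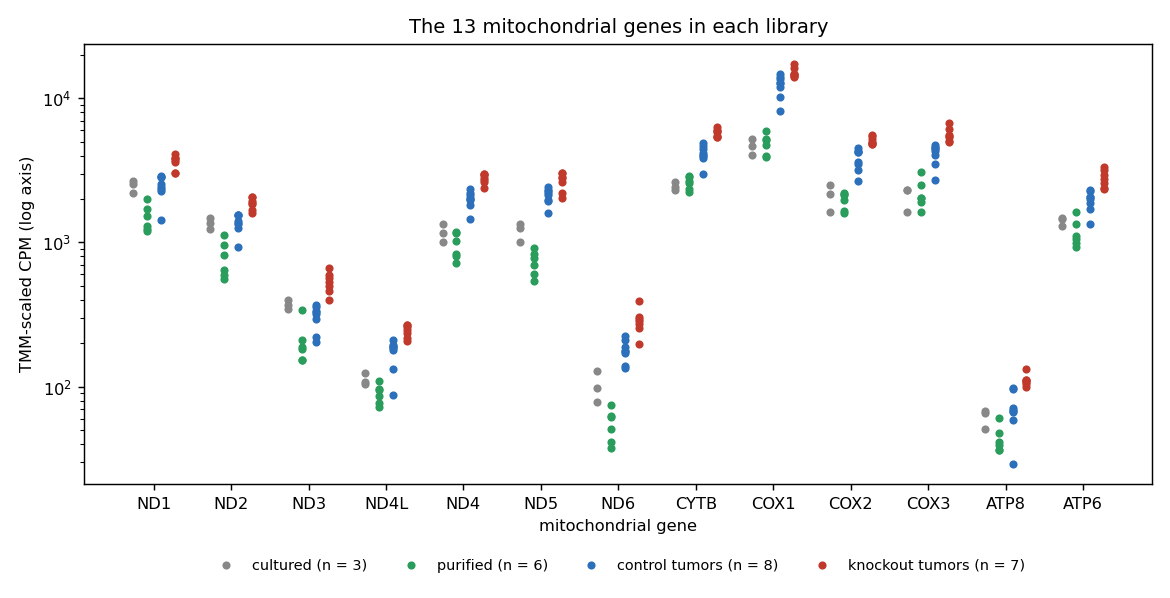
TMM-scaled CPM on a log axis (y) of each mitochondrial gene (x) in cultured cells (n = 3), purified cells (n = 6), control tumors (n = 8) and knockout tumors (n = 7); each point is a library. Knockout tumors lie highest for every gene, with 9 of 13 genes free of overlap with control tumors, and purified cells lie at or below cultured cells for most genes of complex I.

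Nuclear members of complex I rose in 23 of 36 cases and fell in 1. Ndufb3, an accessory subunit, had 86.9, 96.8 and 148 CPM in knockout tumors and 43.9, 57.6 and 71.4 in control tumors, without overlap (log2 fold change 0.82, SE 0.11, edgeR adjusted p = 3.75e-05). Ndufa13, also known as GRIM-19, had 86.3, 94.3 and 120 CPM against 53.6, 66.0 and 74.1 (0.58, SE 0.08, edgeR adjusted p = 1.49e-05). Ndufb11, another accessory subunit, was the one called lower, with 88.0, 92.9 and 101 CPM against 84.1, 112 and 131 and a difference of -0.21 (SE 0.08, edgeR adjusted p = 0.038). Its groups overlapped, and the call was lost when any of 9 of the 15 tumors was left out (edgeR adjusted p = 0.061 to 0.081). Of the core subunits, Ndufv2, which carries an iron-sulfur cluster, rose by 0.35 (SE 0.08, edgeR adjusted p = 0.002), while Ndufv1, which binds NADH and flavin, was at -0.11 and Ndufs1 at 0.07, neither of them called.

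Complex II, which is wholly nuclear encoded and also acts in the tricarboxylic acid cycle, was divided. Sdha, the flavoprotein that oxidises succinate, fell by 0.24 on the log2 scale (SE 0.05, edgeR adjusted p = 0.0016). Its 7 knockout tumors lay at 133, 163 and 176 CPM and its 8 control tumors at 185, 189 and 192, without overlap. Sdhd, a membrane anchor, rose by 0.28 (SE 0.07, edgeR adjusted p = 0.0041) and Sdhb, the iron-sulfur subunit, by 0.22 (SE 0.06, edgeR adjusted p = 0.0076), while Sdhc was at -0.06 and was not called.

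Complex III had 5 of 8 nuclear members higher and none lower. Uqcr10, a small accessory subunit, had the smallest p of all nuclear members. It had 40.6, 45.8 and 55.9 CPM in knockout tumors and 21.6, 28.7 and 32.7 in control tumors (0.72, SE 0.08, edgeR adjusted p = 2.21e-06). Uqcrh, the hinge protein that binds cytochrome c1, had 89.3, 95.3 and 133 CPM against 53.3, 71.1 and 83.3, without overlap (0.57, SE 0.10, edgeR adjusted p = 0.00039). The large core proteins Uqcrc1 and Uqcrc2 were at -0.08 and 0.06 and were not called.

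Of 15 tested nuclear members of complex IV 12 rose and none fell. Ndufa4, once assigned to complex I and now to complex IV, had 66.7, 83.4 and 95.3 CPM in knockout tumors and 38.4, 54.2 and 58.7 in control tumors, without overlap (0.65, SE 0.09, edgeR adjusted p = 1.32e-05). Cox7b rose by 0.52 (SE 0.09, edgeR adjusted p = 0.00015) and Cox4i1, which takes part in the regulation by ATP, by 0.25 (SE 0.06, edgeR adjusted p = 0.0016). Cox6a1 was at 0.05 and was not called. In complex V 11 of 15 rose and none fell. Atp5l, a subunit of the membrane part, had 137, 155 and 208 CPM against 79.5, 112 and 125, without overlap (0.63, SE 0.10, edgeR adjusted p = 9.64e-05). The 3 genes that encode the same mature subunit c of the rotor ring rose by 0.32 (Atp5g2), 0.29 (Atp5g3) and 0.21 (Atp5g1), each with an SE of 0.07 to 0.08. The catalytic subunits of the head, Atp5a1 at -0.03 and Atp5b at -0.06, were not called. Of the 10 assembly factors and related proteins 5 rose and none fell, with Ndufaf2, a complex I chaperone, at 0.44 (SE 0.10, edgeR adjusted p = 0.0018).

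**Figure D3:**
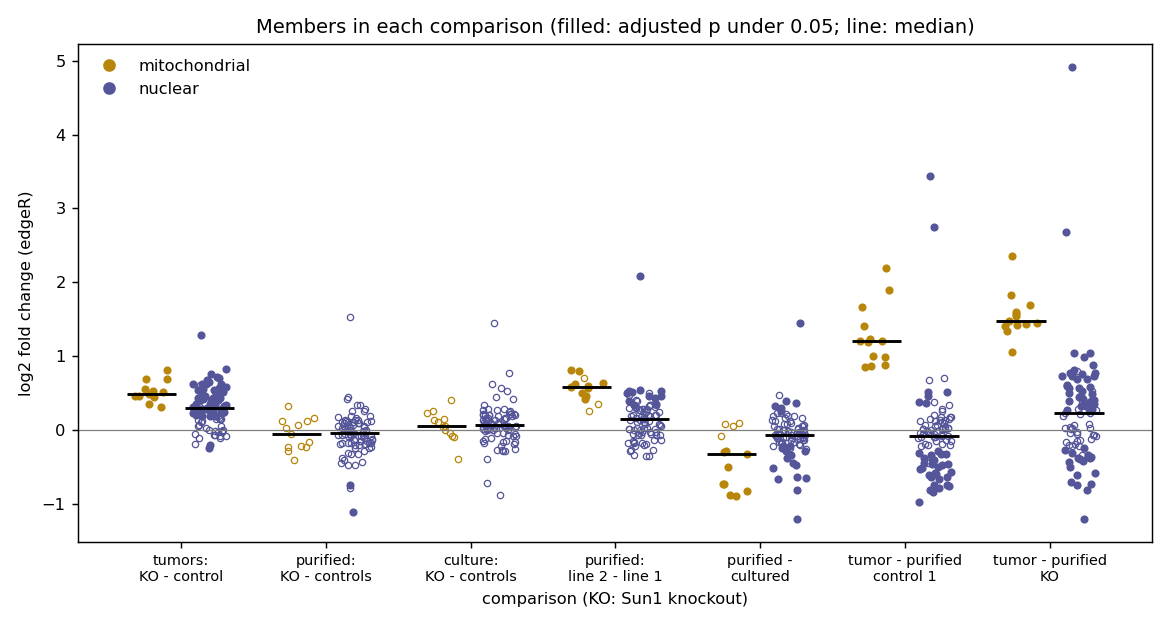
Log2 fold change from edgeR (y) of the mitochondrial and nuclear members in 7 comparisons (x); filled points have an adjusted p under 0.05 and lines are medians. In tumors the knockout medians are 0.49 (mitochondrial) and 0.29 (nuclear). In purified and cultured cells, against both control lines together, they lie near 0. Against control line 1 alone, the line of the control tumors, the purified mitochondrial median was 0.28, and against line 2 alone -0.33 (not plotted). For whole tumors against purified cells the mitochondrial medians are 1.20 (control line 1) and 1.47 (knockout). The nuclear medians are -0.07 and 0.23, with nuclear members called in both directions.

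The rise of nuclear members in tumors went along with short transcripts, as it did over all genes. The median log2 fold change of all 239 tested genes of up to 600 bases was 0.37, and that of the 29 nuclear members among them was 0.41. From 600 to 1000 bases the medians were 0.26 for 755 genes and 0.29 for 30 members, and from 1000 to 2000 bases 0.11 for 3234 genes and 0.19 for 23 members. From 2000 to 4000 bases they were -0.01 for 5689 genes and 0.03 for 6 members. Across genes, which are not independent replicates, Spearman's rho of fold change with length was -0.31 over 13752 genes and -0.48 over the 88 nuclear members. With a length trend removed from each library, 25 nuclear members were called higher and 13 lower, with a median of 0.04, and 11 mitochondrial members higher and none lower, with a median of 0.29. Of all 13752 genes 2299 were higher and 2202 lower in that fit. The test on log2(TPM + 1) with limma called 28 nuclear members higher and 9 lower, and 9 mitochondrial members higher. Of all 13752 genes limma called 1222 higher and 3575 lower. With the trend removed Ndufb3, Ndufa13, Ndufa4, Uqcr10, Uqcrh, Cox7b and Atp5l were also called higher, and Ndufb11 and Sdha lower. The calls of ATP8 (0.13), ND4L (0.05), Sdhb (0.05), Atp5g2 and Atp5g3 (0.02 each), Ndufaf2 (0.16) and Cox6a2 (0.44) were lost, as was that of Atp5k (0.13), and Cox4i1 and Atp5g1 turned to -0.01 and -0.04. Members not called before became lower, among them Ndufa1 (-0.39), Cox6a1 (-0.29), Sdhc (-0.21) and Ndufv1 (-0.19), and Ndufb11 was at -0.45.

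**Figure D4:**
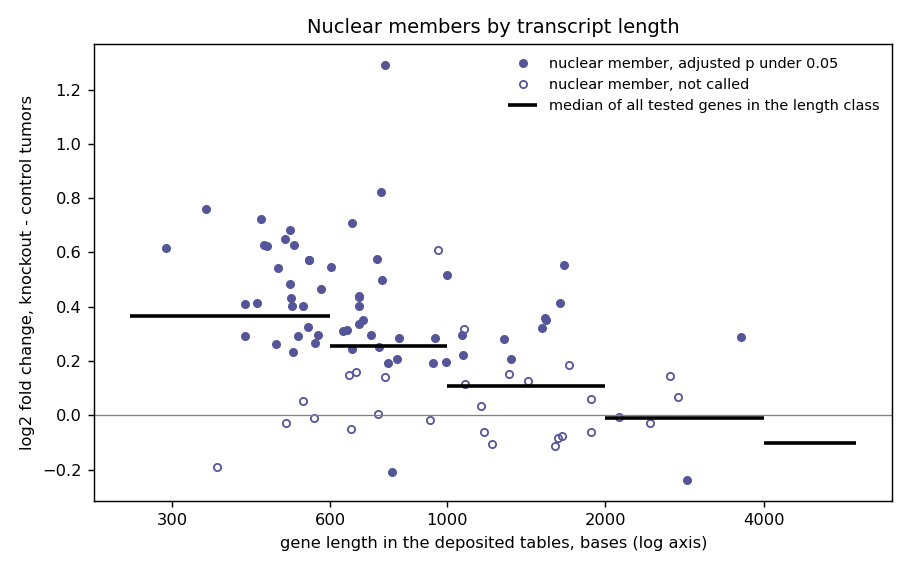
Log2 fold change of knockout over control tumors (y) for the 88 nuclear members against gene length in bases (x, log axis); filled points are called, and bars give the median of all tested genes in each length class, the last class being over 4000 bases. Members follow the bars, from a median of 0.41 in the shortest class to 0.03 from 2000 to 4000 bases, a class of only 6 members.

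Host cells also differed between the tumors. Of the leukocyte markers 5 of 6 were higher and 1 lower in the knockout, and their sum was 351 to 573 CPM in control tumors and 538 to 801 in knockout tumors. Of 9 T cell markers 8 were higher (47 to 99 CPM summed in the control, 99 to 171 in the knockout), of 10 macrophage markers 4 were higher (569 to 1704 against 963 to 2233 CPM) and of 9 endothelial markers 4 were higher (84 to 108 against 103 to 160 CPM). No marker of these lists of leukocytes, T cells, macrophages and endothelium was at 0 throughout either tumor group. Of 4 tested neutrophil markers none was higher and 1 lower (24.3 to 42.3 against 15.2 to 52.8 CPM), and of 9 fibroblast markers 2 were higher and 1 lower (2422 to 3510 against 2270 to 3542 CPM). Of 12 tested skeletal muscle markers 10 were higher, with sums of 8.37 to 29.6 CPM in the control and 9.54 to 220 in the knockout. The names of the tumors' deposited tables fall into 2 runs of library numbers, of 4 knockout and 3 control tumors and of 3 and 5. Within the first run 13 mitochondrial and 37 nuclear members were higher and 1 nuclear member lower, and within the second 8 and 34 were higher and none lower. Of all 14006 genes tested in the first run 1096 were higher and 1664 lower, and of 14049 in the second 1033 and 1107. The part of host cells in the results on tumors was not tested, and in bulk tissue fewer cells of a type and less RNA per cell cannot be told apart.

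Related mitochondrial genes did not all move with the members. Over all 13752 genes 18.1% were called higher and 19.0% lower in tumors. The counts of the lists below are from the fit with no length trend removed. Of 77 mitochondrial ribosomal proteins 32 were higher in knockout tumors and none lower, with a median of 0.18. Of 40 assembly factors outside the members 10 were higher and 1 lower, with a median of 0.10. Of 33 genes of mitochondrial DNA maintenance and expression 6 were higher, near the share over all genes, and 2 lower, with a median of 0.01. Among them Slirp, which stabilises mitochondrial messengers, was at 0.73 (SE 0.14, edgeR adjusted p = 0.00063). Of 18 genes of the tricarboxylic acid cycle none was higher and 3 were lower. Of 20 glycolysis genes 1 was higher and 15 were lower, with a median of -0.36. Slc16a3, which exports lactate, had 22.8, 41.7 and 47.9 CPM in knockout tumors and 73.3, 87.5 and 92.6 in control tumors (-1.11, SE 0.11, edgeR adjusted p = 5.45e-07), and Hk2, the hexokinase bound to mitochondria, was at -0.48 (SE 0.08, edgeR adjusted p = 0.00027). Of 11 tested regulators of mitochondrial biogenesis 3 were higher and 5 lower. Of 7 electron carriers and ATP synthase regulators 4 were higher and 1 lower. Atpif1, the inhibitor of the ATP synthase, was at 0.96 (SE 0.11, edgeR adjusted p = 5.56e-06) and Cycs, cytochrome c, at 0.58 (SE 0.11, edgeR adjusted p = 0.00061), while Slc25a5, an ADP/ATP carrier, was at -0.52 (SE 0.07, edgeR adjusted p = 1.35e-05).

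Promoters of nuclear members were searched for binding words of factors known to act on respiratory genes, NRF1 and GABP. In the 250 bases before the start site, on both strands, the NRF1 word, GCGC and TGCGC separated by any 1 base, was present in 14 of the 73 member genes with a RefSeq promoter on GRCm38.p6 (19.2%) and in 1144 of all 27025 genes (4.23%). The GABP word CCGGAAG was present in 13 of the 73 (17.8%) and in 7.83% of all genes. Neither word contains the other. The windows of the 3 members with the NRF1 word that had the smallest p among those rising in tumors are shown with the word in capitals. In Atp5h and Ndufb4 the capitals are the reverse complement of the word, which lies on the other strand. They lie at chr11:115420026-115420085 (Atp5h, a stalk subunit of complex V), chr16:37654525-37654584 (Ndufb4, an accessory subunit of complex I) and chr5:108434415-108434474 (Atp5k, a membrane subunit of complex V), all on the minus strand.
Atp5h: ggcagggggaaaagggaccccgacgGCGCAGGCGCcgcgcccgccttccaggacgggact
Ndufb4: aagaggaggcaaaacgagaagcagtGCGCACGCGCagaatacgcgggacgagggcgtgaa
Atp5k: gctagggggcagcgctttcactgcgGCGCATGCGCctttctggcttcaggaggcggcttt
In tumors Atp5h rose by 0.47, Ndufb4 by 0.62 and Atp5k by 0.62, which became 0.13, 0.24 and 0.13 with the length trend removed, where Atp5k was not called. Of the 14 members with the NRF1 word 9 rose, 1 fell (Sdha) and 4 were not called, and of the 13 with the GABP word 11 rose and 2 were not called, where 58 of all 88 nuclear members rose. With the length trend removed 5 of the first rose and 3 fell, and 4 of the second rose and 1 fell. A match describes the letters and is not a measured binding site.

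In purified tumor cells few members were called. Against both control lines together, none of the 13 mitochondrial and none of the 86 nuclear members tested was higher in the knockout, and 2 nuclear members were lower (edgeR adjusted p under 0.05). Over all 12476 genes 2.26% were called higher and 2.29% lower, 4.55% in all. The mitochondrial median was -0.05. Against control line 1 alone, the line of the control tumors, it was 0.28, and against control line 2 alone it was -0.33. At an unadjusted p under 0.05 there were 0 mitochondrial members and 5 nuclear members higher and 10 lower, and DESeq2 called 0 mitochondrial members and 1 nuclear member higher and 4 lower. COX1 had 5149 and 5916 CPM in the knockout, 3887 and 3950 in control line 1 and 4737 and 5235 in control line 2. ND3 had 154 and 181 CPM in the knockout, 153 and 189 in control line 1, and 210 and 342 in control line 2. For both genes the knockout overlapped the range of the controls. Neutrophil markers summed to 9.41 and 15.1 CPM in the knockout and to 33.2 to 43.7 in the controls, and their part was not tested. Of these 7 genes 5 were at 0 in both knockout libraries. Mmp9 was the only one with the knockout below every control library.

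The members that were lower in purified knockout cells are accessory subunits of complex I, both on the X chromosome. Ndufb11, at chrX:20615326-20617619, had 55.6 and 60.4 CPM in the knockout, 113 and 123 in control line 1 and 116 and 148 in control line 2 (-1.10, SE 0.14, edgeR adjusted p = 0.0031). Ndufa1, at chrX:37187588-37191238, had 13.3 and 14.96 CPM in the knockout, 22.8 and 23.5 in control line 1, and 22.1 and 26.6 in control line 2 (-0.74, SE 0.15, edgeR adjusted p = 0.025). The knockout lay below every control library for both. They were also lower against each control line alone. Without knockout replicate 1, or without knockout replicate 2, no member was called. The third X-linked member, Cox7b, was not called. In culture Ndufb11 had 57.2 CPM in the knockout, 97.4 in control line 1 and 89.0 in control line 2, and Ndufa1 had 15.5, 29.7 and 27.1 CPM. These differences of -0.71 and -0.88 were not called (edgeR adjusted p = 0.72 for each). In whole tumors Ndufa1 was at -0.03, not called, and with the length trend removed it was called lower (-0.39, edgeR adjusted p = 0.0015).

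The control lines also differed from each other. In purified cells control line 2 was above control line 1 for 10 of 13 mitochondrial members and 12 of 86 nuclear members and below it for none (edgeR adjusted p under 0.05), with medians of 0.58 and 0.14. Over all genes 6.73% were called higher and 9.01% lower. With the length trend removed 7 mitochondrial members were higher, and 6 nuclear members were higher and 8 lower with a median of 0.01. Of all 12476 genes 916 were then higher and 1134 lower. ND6 had 37.7 and 41.0 CPM in control line 1 and 63.0 and 74.8 in control line 2 (0.82, SE 0.13, edgeR adjusted p = 0.0015). ND2, a core subunit of complex I, was at 0.80 (SE 0.15, edgeR adjusted p = 0.0045) and COX3 at 0.63 (SE 0.13, edgeR adjusted p = 0.0074). COX1, ND3 and CYTB were not called, at 0.36, 0.70 and 0.26. Uqcrq, a subunit of complex III, was at 0.52 (SE 0.12, edgeR adjusted p = 0.013) and Ndufab1, the mitochondrial acyl carrier protein, at 0.52 (SE 0.11, edgeR adjusted p = 0.0086). Without control line 1 replicate 1 the counts fell to 2 mitochondrial and 1 nuclear member, and without control line 1 replicate 2 to 7 and 0. Without control line 2 replicate 1 they were 8 mitochondrial members higher, with 1 nuclear member higher and 5 lower, and without control line 2 replicate 2 they were 12 and 26. Against control line 1 alone the purified knockout had 4 mitochondrial members higher (COX1, COX2, ND5 and ND6) and 5 nuclear members higher with 8 lower. Of all 12476 genes 1038 were higher and 1262 lower in that fit. Against control line 2 alone the purified knockout had 5 mitochondrial members lower (ATP6, ATP8, COX3, ND1 and ND2) and 4 nuclear members higher with 9 lower. Of all 12476 genes 1369 were higher and 1307 lower there. The whole tumors had control line 1 only, so a comparison of knockout tumors with tumors of control line 2 was not made.

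In culture no member and no gene was called between the knockout and the control lines by edgeR (0 higher and 0 lower of 12175 genes, 0% in each direction), in a fit with a lone knockout library. At an unadjusted p under 0.05 no mitochondrial member, 2 nuclear members (both lower) and, over all genes, 286 higher and 373 lower stood out, and DESeq2 called 13 genes higher and 31 lower, none of them a member. The medians were 0.06 for both sets. COX1 had 5248 CPM in the knockout, 4068 in control line 1 and 4657 in control line 2. COX2 had 2514, 1615 and 2170 CPM in the same order. For both the knockout was highest. ND6, with 97.7, 78.6 and 128 CPM, lay between the lines.

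Cells purified from tumors had lower levels of the mitochondrial genes of complexes I and V than cultured cells. Growth in the animal and the purification of the cells cannot be told apart in this comparison. In whole tumors, which also hold host cells, the mitochondrial genes of complex I made up 0.632% to 1.35% of the counts. In culture they made up 0.577% to 0.739%. Purified cells of the 3 lines had 9 of 13 mitochondrial members below cultured cells and none above (edgeR adjusted p under 0.05), where 22.1% of all 12651 genes were called higher and 21.4% lower. All 7 mitochondrial members of complex I fell, with a median of -0.73, and so did ATP6 (-0.28) and ATP8 (-0.50). ND1 had 2189, 2538 and 2649 CPM in the 3 cultured libraries and 1195 to 2014 in the 6 purified ones, without overlap (-0.73, SE 0.10, edgeR adjusted p = 0.0001). COX1 (0.05), COX2 (-0.08), COX3 (0.08) and CYTB (0.09) were not called. Of 86 nuclear members 6 rose and 16 fell, with a median of -0.06. Ndufa4 had 116, 126 and 131 CPM in culture and 46.5 to 67.7 in purified cells, without overlap (-1.20, SE 0.11, edgeR adjusted p = 4.29e-06). Uqcrq was at -0.81 (SE 0.10, edgeR adjusted p = 5.1e-05) and Cox5a, a subunit of complex IV, at -0.64 (SE 0.08, edgeR adjusted p = 8e-05). The assembly factors Ndufaf1, Ndufaf4, Ndufaf5 and Ndufaf6 all fell. Cox7a2l, a supercomplex factor, rose by 0.32 (SE 0.11, edgeR adjusted p = 0.027), a call lost without any one of 4 libraries, among them cultured control line 1 (0.24, edgeR adjusted p = 0.18). ATP6 lost its call without any one of 7, among them the cultured knockout (-0.19, edgeR adjusted p = 0.22). Of 17 genes of mitochondrial import, folding and shape 13 fell and none rose, of 33 genes of mitochondrial DNA maintenance and expression 17 fell and 1 rose, and of 18 genes of the tricarboxylic acid cycle 9 fell and 1 rose. Leukocyte markers summed to 23.3 to 24.99 CPM in culture and 49.6 to 70.8 in purified cells, and fibroblast markers, which CT26 cells also express, to 1456 to 1898 and 3580 to 6067 CPM. The 7 neutrophil markers summed to at most 0.16 CPM in culture, 9.41 to 43.7 in purified cells and 24.3 to 42.3 in control tumors. Of these 7, 3 were at 0 in both libraries of each purified control line and 5 in both of the purified knockout. Mmp9 alone was above every cultured library in all purified ones, and it was lower in control tumors than in purified control line 1. The sum thus rests on few genes. Of 10 macrophage markers 3 rose, of 9 fibroblast markers 8, of 2 tested endothelial markers both, of 6 leukocyte markers 2 and the 1 neutrophil marker tested. Their part in this comparison was not tested. Without cultured control line 2 no nuclear member was called higher and 17 were lower. Without the cultured knockout 8 were higher and 10 lower. Without cultured control line 1 the counts were 2 higher and 11 lower, and without purified control line 1 replicate 2 they were 3 and 13. With the length trend removed 32 nuclear members were lower and 6 higher, where 2964 of all 12651 genes were lower and 2904 higher.

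The makeup of the mitochondrial set also differed between settings. ND1 made up 12.02% to 12.93% of the counts of the 13 genes in the cultured groups, on average 7.86% to 9.50% in the purified groups and 6.99% to 7.72% in tumors. ND5 went from 5.90% to 6.51% in culture to 4.03% to 4.35% in purified cells but was at 5.72% to 6.08% in tumors. ND6 had a like pattern, at 0.463% to 0.625%, 0.278% to 0.353% and 0.513% to 0.614% in the same order. ND4 differed less, at 5.47% to 6.58%, 5.28% to 5.99% and 5.75% to 5.97%. COX1 made up 22.7% to 24.9% in the cultured groups, on average 25.5% to 31.5% in the purified groups and 32.6% to 35.1% in tumors. CYTB went from 11.8% to 13.6% in culture to 13.9% to 16.2% in purified cells and 11.9% to 12.4% in tumors. These shares are free of the scaling between libraries, because each is taken within the 13 genes of 1 library.

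Whole tumors were compared with purified cells of the same line, in 1 fit of tumors and purified cells of the knockout and control line 1. For control line 1 all 13 mitochondrial members were higher in tumors (median 1.20), and of 88 nuclear members 7 were higher and 29 lower (median -0.07). Over all 15033 genes 29.6% were called higher and 23.9% lower. For the knockout all 13 were higher (median 1.47), with 36 nuclear members higher and 19 lower (median 0.23), where 31.6% of all genes were called higher and 25.7% lower, 57.3% in all. COX1 rose by 1.67 (SE 0.16, edgeR adjusted p = 1.02e-08) for control line 1 and by 1.47 (SE 0.16, edgeR adjusted p = 4.12e-08) for the knockout. ND6 had 37.7 and 41.0 CPM in purified control line 1 and 135 to 224 in its tumors, which was the largest mitochondrial change there (2.19, SE 0.23, edgeR adjusted p = 3.48e-07). Several nuclear subunits were lower in the tumors of both lines. Atp5b, the catalytic beta subunit of complex V, had 1789 and 1878 CPM in purified control line 1 and 1006 to 1132 in its tumors, and 1805 and 1859 against 906 to 1099 in the knockout (-0.75, SE 0.07, edgeR adjusted p = 1.05e-08, and -0.82, SE 0.07, edgeR adjusted p = 2.6e-09). Uqcrc1 fell by 0.98 (SE 0.09, edgeR adjusted p = 3.17e-09) in control line 1 and by 1.20 (SE 0.09, edgeR adjusted p = 9.36e-11) in the knockout. Ndufa10, a complex I subunit, fell by 0.84 and 0.73 (SE 0.08 for each), and Sdha by 0.38 and 0.36. Host markers were far higher in tumors: the 6 leukocyte markers rose in both lines, the 10 macrophage markers in 9 and 10 cases and the 9 T cell markers in all, with sums of 15.8 to 28.5 CPM for macrophages in these purified cells and 569 to 2233 in tumors. Their part was not tested, and host cells and the purification of the cells cannot be told apart in this comparison. With the length trend removed the knockout had 15 nuclear members higher and 40 lower, where 4419 of all 15033 genes were higher and 4324 lower. Leaving out 1 purified library gave 21 or 24 nuclear members higher for the knockout. Leaving out a purified library of control line 1 left 11 or 12 mitochondrial and 2 or 6 nuclear members higher for that line.

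The genotype difference in tumors was set against that in purified cells of control line 1 and the knockout as an interaction. It was called for none of the 13 mitochondrial members, 2 of which had an unadjusted p under 0.05, and DESeq2 called 1. Of 88 nuclear members 12 were called with a higher difference in tumors and 1 with a lower one (edgeR adjusted p under 0.05), where 4.82% of all 15033 genes were called higher and 5.27% lower, 10.1% in all. ND3 had the largest mitochondrial estimate, at 0.84 (SE 0.28, edgeR adjusted p = 0.067). Ndufa4 was at 0.92 (SE 0.20, edgeR adjusted p = 0.0052): it had 46.5 and 49.6 CPM in the purified knockout and 48.4 and 67.7 in purified control line 1, and did not overlap between the genotypes in tumors. Uqcrh was at 1.13 (SE 0.22, edgeR adjusted p = 0.0024), with 48.9 and 53.5 CPM in the purified knockout and 70.7 and 81.3 in purified control line 1, the reverse order of the tumors. Ndufb11 was at 0.81 (SE 0.16, edgeR adjusted p = 0.0024). Its difference was -1.01 in purified knockout cells against control line 1 alone and -0.21 in tumors, or -0.45 in tumors with the length trend removed. Without purified knockout replicate 1, or without either purified control line 1 library, 6 nuclear members were called higher, and without purified knockout replicate 2 only 4 were. With the length trend removed 6 were higher and 4 lower, where 771 of all 15033 genes were higher and 737 lower.

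Complex IV has subunits with tissue-restricted forms, encoded by paralogs that replace the ubiquitous gene in heart and skeletal muscle, lung or testis. The ubiquitous forms made up almost all of the signal. Cox8c, a testis form, was at 0 in all 24 libraries, Cox7b2 was at 0 in 22, Cox8b in 16 and Cox6b2 in 11. Cox4i2, a lung form linked to oxygen sensing, had 0.50, 0.85 and 1.39 CPM in knockout tumors and 0.05, 0.39 and 0.66 in control tumors, with overlap (1.29, SE 0.35, edgeR adjusted p = 0.0067). The 6 purified libraries had 0 to 0.18 CPM. Ndufa4l2, a hypoxia-induced relative of Ndufa4, had 1.32 to 4.01 CPM in knockout tumors and 0.78 to 2.19 in control tumors and was not called (0.61, edgeR adjusted p = 0.079).

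Cox6a2, the heart and muscle form of Cox6a1, had its highest values in knockout libraries of each setting. In tumors it had 2.51, 3.94 and 8.29 CPM in the knockout and 1.20, 2.76 and 4.63 in the control, with overlap (0.71, SE 0.26, edgeR adjusted p = 0.041). The call was lost when any of 9 of the 15 tumors was left out, and without knockout tumor 3 the difference was 0.47 (edgeR adjusted p = 0.13). Purified cells had 2.32 and 3.81 CPM in the knockout, 0.26 and 0.55 in control line 1 and 1.57 and 1.84 in control line 2. The knockout exceeded both lines there, but the difference from both together was not called, while control line 2 was above control line 1 (2.09, SE 0.56, edgeR adjusted p = 0.025). In culture it had 2.42 CPM in the knockout and 0.82 and 0.93 in the control lines, not called (1.45, edgeR adjusted p = 0.95). Skeletal muscle markers moved in the same direction: of 17 genes, 3 of 9 tested rose in purified knockout cells, with sums of 8.12 and 55.2 CPM against 4.85 to 8.10 in the controls, and in culture, where no host cells are present, the sums were 11.1 CPM in the knockout and 2.47 and 3.05 in the control lines. Their part in the level of Cox6a2 was not tested. Cox7a1, the other heart and muscle form detected, was not called between genotypes in tumors (-0.19, SE 0.28, edgeR adjusted p = 0.62) and was higher in purified than in cultured cells, at 0.61 to 1.64 CPM against 0.33 to 0.41 (1.44, SE 0.48, edgeR adjusted p = 0.028), a call lost without any one of 5 of the 9 libraries, among them cultured control line 1 (1.29, edgeR adjusted p = 0.11).

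**Figure D5:**
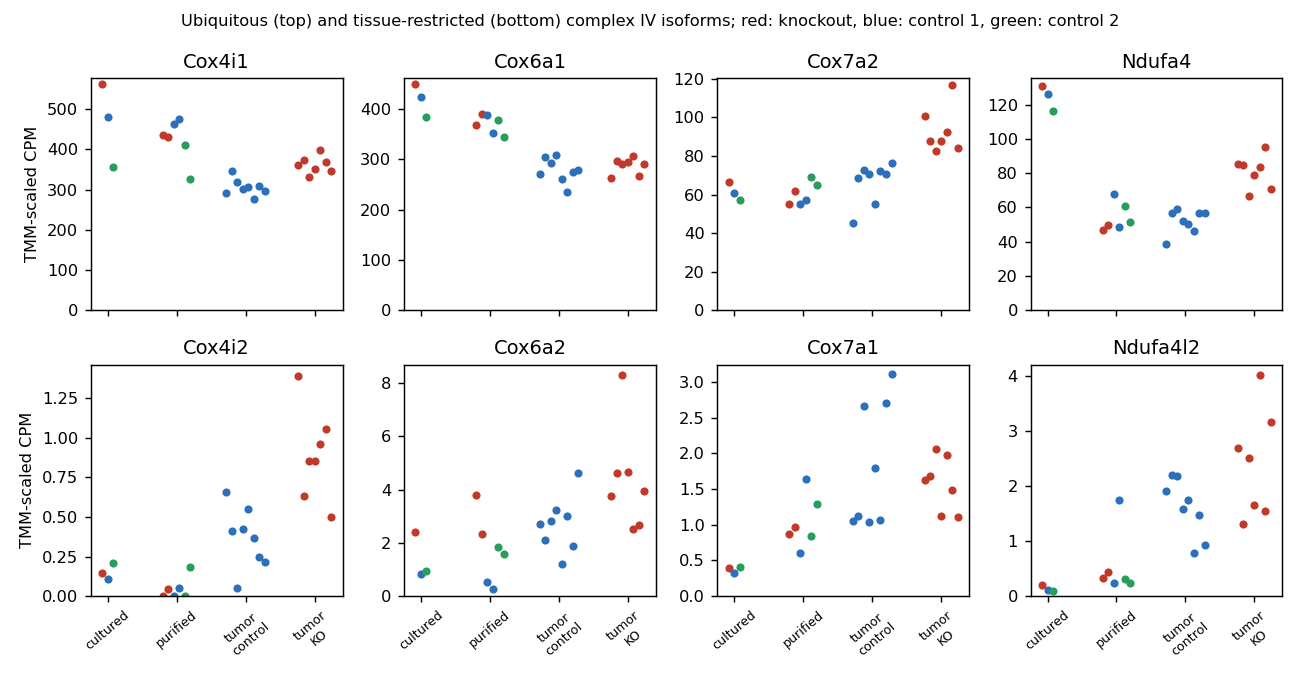
TMM-scaled CPM (y, each panel from 0 on its own scale) of ubiquitous complex IV genes (top) and their tissue-restricted paralogs (bottom) in each library of the cultured, purified, control tumor and knockout tumor groups (x); colors mark the knockout, control line 1 and control line 2. Restricted forms stay at or below 8.29 CPM, and Ndufa4 separates the genotypes in tumors, with 38.4 to 58.7 CPM in the control and 66.7 to 95.3 in the knockout.

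The genes most like the mitochondrial sum, by Pearson correlation of log2 CPM over the 24 libraries, were Cept1 (r = 0.963), Vmp1 (0.961), 1600010M07Rik (0.961), Cxcr3 (0.961) and Ifng (0.956). Within the 15 tumors their r was 0.90, 0.72, 0.84, 0.84 and 0.88 in the same order. Cxcr3 encodes a chemokine receptor of T cells and Ifng encodes interferon gamma. Since tumors and cells form separate clusters on this sum, the values over 24 libraries describe mainly that separation.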

How the data were processed

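RNA was enriched for messengers and sequenced from 24 libraries, per the labels' protocols. FastQC, STAR and RSEM on mm10 were used, per the submitters' processing notes, with versions and strand settings not given in the sources used here. The authors deposited for each library expected counts, estimated reads per gene without scaling, and TPM, which divides by effective gene length. All 24 libraries were mapped from the labels. The members, related lists and tests were chosen with earlier results of these data known.

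Expected counts were rounded. Fits used edgeR 4.0.16 (R 4.3.3): TMM normalisation, genes kept by filterByExpr at a minimum count of 10 and total of 15, robust quasi-likelihood F tests, two-sided, Benjamini-Hochberg adjustment over all genes tested, threshold 0.05. The SE was computed by dividing the absolute log2 fold change by the root of F. Printed CPM were TMM-scaled over 24 libraries. TPM were tested with limma 3.58.1 on log2(TPM + 1), and DESeq2 1.42.0 was an alternative. Length trends were removed as a lowess curve (span 0.5) over gene length in each library, an alternative added after the data were seen, as were fits within each run of library numbers. The main edgeR fits were tested on simulated data, but the length trend, limma, DESeq2 and promoter steps were not. Libraries of 1 group differed by a chi-square per gene of at least 7.38, so none was a copy.

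Text names all 13 mitochondrial members, per comparison and complex the called nuclear members with the smallest p, isoform pairs, subunit c genes, and called genes of related lists. Members named beside them to show core subunits, and Atp5h, Ndufb4 and Atp5k, chosen for their promoter word, were added after their values were seen. Coordinates are of GRCm38, which is mm10, from RefSeq, matched by symbol for 102 of 105 members, and promoters are RefSeq's on GRCm38.p6. Similar pseudogenes can take reads of short nuclear members, so their counts are estimates. Some results on single genes are not reported here.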

Additional observations from a re-analysis of the deposited data

Results flagged for a closer look

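Among tumor libraries 80 groups of values were checked for a library far from the others, and 7 had one, where chance gives about 1 in 20. Knockout tumor 6 was highest for Ndufb3 (148 CPM, next 105), Uqcr10 (55.9 CPM, next 46.9) and Atp5g3 (252 CPM, next 196). Knockout tumor 1 was highest for ATP8 (132 CPM, next 112) and knockout tumor 3 for Cox6a2 (8.29 CPM, next 4.68). Control tumor 1 was lowest for ND1 (1436 CPM, next 2281) and control tumor 8 highest for Ndufaf2 (22.1 CPM, next 16.4).

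The interaction term of edgeR was called positive for 12 nuclear members, where 4.82% of all genes were. Among them were Atp5s at 1.33 on the log2 scale (adjusted p = 0.016), Uqcrh at 1.13 (0.0024), Ndufa4 at 0.92 (0.0052), Ndufb11 at 0.81 (0.0024), Uqcr10 at 0.67 (0.017), Ndufb6 at 0.66 (0.0018), Ndufc2 at 0.53 (0.036), Cox7a2l at 0.52 (0.0093), Atp5c1 at 0.42 (0.028), Sdhb at 0.41 (0.042) and Cox4i1 at 0.36 (0.045). A positive term can also mean a smaller fall in tumors, as for Ndufb11, which was lower in the knockout in both settings. For Cox6a2 the term was -2.22 (adjusted p = 0.043).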

How the results depend on the processing

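Scaling by DESeq2 size factors changed the call of no called member in any comparison, and scaling by nuclear-encoded totals ended 1 call, in the interaction. In tumors, all genes called numbered 2760 and 2140 within the runs of library numbers, against 5107. Mitochondrial members called higher were 8 within the second run. Nuclear members called higher were 25 with the length trend removed, 37 and 34 within the runs and 28 by limma on TPM. Nuclear members called lower were 13, 1 and 0, and 9 in that order. With the length trend removed, 14 called tumor members changed sign, among them Atp5g1 (-0.0383), Cox4i1 (-0.0150) and Cox8a (-0.0162), and between knockout tumors and purified knockout cells 8 did, among them Atp5g2 (-0.133) and Cox6b1 (-0.114). On the TPM scale the nuclear share of knockout over control tumors was 1.10.

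In purified cells, all genes called in the knockout comparison numbered 1203 by DESeq2, 908 without a filter on low counts, 303 with the replicate block, 2300 against control line 1 alone and 2676 against control line 2 alone. Nuclear members higher were 1 by DESeq2, 1 with the length trend removed, and 5 and 4 against each line alone, and those lower were 4 by DESeq2, 1 with the replicate block, and 8 and 9 against each line alone. Mitochondrial members were 4 higher against control line 1 and 5 lower against control line 2. In culture 44 genes were called by DESeq2 and 95 without a filter.

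Between control lines the length trend left 6 nuclear members higher and 8 lower. DESeq2 called 1 lower, and 2 were lower without a filter. For purified against cultured cells the length trend gave 32 nuclear members lower. For tumors against purified cells the nuclear members higher were 4 without a filter (control line 1) and 15 with the length trend removed (knockout, with 40 lower). For the interaction DESeq2 called 1 mitochondrial member, the length trend gave 6 nuclear members higher and 4 lower, and no filter gave 0 lower.

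Leaving out 1 library at a time gave 4523 to 5158 genes, 13 mitochondrial and 51 to 59 nuclear members higher and 1 to 2 lower in tumors. In purified cells it gave 72 to 540 genes and 0 to 3 nuclear members lower. Between control lines it gave 791 to 2215 genes, 2 to 12 mitochondrial and 0 to 26 nuclear members higher and 0 to 5 lower. For purified against cultured cells it gave 4261 to 5360 genes, 7 to 9 mitochondrial members lower, and nuclear members 0 to 8 higher and 10 to 22 lower. For tumors against purified cells it gave 5793 to 8368 genes and 2 to 11 nuclear members higher (control line 1), and 6644 to 8791 genes and 21 to 37 nuclear members higher (knockout). For the interaction it gave 546 to 1705 genes, 0 to 1 mitochondrial members, and nuclear members 4 to 15 higher and 0 to 1 lower. The causes of these changes were not tested.

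Replicate numbers are shared between groups, but same-numbered tumors deviated together with r of -0.11 to 0.22, over 0.1 in 2 of 7 pairs, so they were not treated as pairs. With the replicate block tumors gave 13 mitochondrial and 54 nuclear members higher and 1 lower, and the control lines 10 and 10 higher. Depth limits the tissue-restricted isoforms, which had few counts per library.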
